A study of Mus musculus with 6 samples.

Results

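The genes described here make microRNAs (miRNAs) from their longer precursors: Dicer1, the gene targeted in this study, the microprocessor genes Drosha and Dgcr8, the export receptor gene Xpo5, and the Dicer partner genes Tarbp2 and Prkra. They were chosen by name, as the rows of the deposited tables whose symbol is exactly one of these, and all 6 were found among the 50600 genes listed. Whole liver RNA was sequenced from 3 samples labelled Dicerloxp/loxp;Alb-cre (Dicer LKO, n = 3) and 3 labelled Dicerloxp/loxp without a Cre (control, n = 3). All 6 samples were from C57BL/6 mice about 1 month old, and the loxP-flanked Dicer alleles are carried by both groups. The albumin promoter drives the Cre and is known as a hepatocyte promoter. Macrophages, endothelial and stellate cells are not its targets, whereas bile duct cells share a precursor with hepatocytes and may be. The labels do not say which part of the gene lies between the loxP sites, nor whether the samples came from separate animals or of which sex. The p-values below are therefore set by how far these 6 samples spread, and some of that spread may be technical.

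MiRNAs are cut out of long primary transcripts in the nucleus by the microprocessor, in which Drosha is the RNA-cutting subunit and Dgcr8 the subunit that binds the RNA. The resulting hairpin precursor is carried to the cytoplasm by exportin 5, the product of Xpo5, together with the small GTPase Ran. There Dicer cuts off the loop with the help of either of the double-stranded RNA binding proteins TRBP (Tarbp2) and PACT (Prkra), and 1 strand is loaded into an Argonaute protein. PACT is also known as an activator of the stress kinase PKR and TRBP as its inhibitor.

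The libraries held 14141954 to 25049753 counts, control replicate 3 being the shallowest. That library stood apart in other ways: 10.2% of its counts came from mitochondrial genes, against 4.62% to 6.46% in the other 5, and its 10 heart and striated muscle markers summed to 561 CPM (counts set to a common library size) against 0.524 to 11.2 CPM. The hepatocyte markers were present in every library, with a summed level of 94927 to 97685 CPM in Dicer LKO and of 98371, 74253 and 59362 CPM in control replicates 1, 2 and 3. Where 1 gene is compared between libraries, levels are in CPM after TMM scaling. Where genes are compared with each other, levels are in deposited TPM, which corrects for length. Differences between the groups were tested over all 14314 genes that passed a filter on low counts with edgeR's quasi-likelihood test, and calls were made where the Benjamini-Hochberg adjusted p was under 0.05. The 6 members all passed the filter, and none of them was called. Of all genes tested, 1.29% were called, 0.552% lower and 0.741% higher in Dicer LKO.

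Dicer1 (ENSMUSG00000041415.9, a protein-coding gene on chromosome 12, 104687742 to 104751952, minus strand, GRCm38) is the gene whose floxed alleles the Cre acts on. Its level was 28.9, 31.2 and 24.4 CPM in Dicer LKO replicates 1, 2 and 3 and 42.5, 69.3 and 56.1 CPM in control replicates 1, 2 and 3. The groups did not overlap, Dicer LKO being the lower, and the lowest control was 1.37 times the highest Dicer LKO library. In the whole table, 28% of tested genes had groups that did not overlap, 15.4% with Dicer LKO lower. The mean in Dicer LKO came to 50.3% of that in the controls, a log2 fold change of -0.99 (SE 0.20, 95% interval -1.44 to -0.54), which is a level of 0.368 to 0.688 times the control. A log2 fold change of -1 or lower, which none of the 6 members reached, was found in 5.52% of tested genes. The adjusted p of 0.0622 (edgeR quasi-likelihood) for Dicer1 missed the threshold, at place 227 of the 14314 genes ranked by p. The exact two-sided permutation p over the libraries was 0.1, the smallest that 3 against 3 can give. DESeq2, which called 3.93% of genes lower, gave -0.99 with an adjusted p of 0.00117. Without control replicate 1, the control nearest to the Dicer LKO libraries, edgeR called 2.11% of genes lower and gave -1.15 for Dicer1, with an adjusted p of 0.0327. Leaving out any other single library gave -1.03 to -0.79, with an adjusted p of 0.108 to 0.180 (edgeR).

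The 612 to 654 Dicer1 counts per Dicer LKO library were taken over the whole gene in RNA of the whole liver, so they do not show how much of the floxed part is left. In RNA from a whole organ, fewer cells of a type and less RNA per cell cannot be told apart. Summed markers of endothelial, stellate and bile duct cells were higher in all 3 Dicer LKO libraries than in any control, and those of macrophages overlapped. The 10 Kupffer cell and macrophage markers summed to 468 to 555 CPM in Dicer LKO against 226 to 506 CPM, and the 10 endothelial markers to 511 to 630 against 402 to 486 CPM. For the 10 stellate cell and fibroblast markers the sums were 568 to 635 against 406 to 468 CPM, and for the 9 bile duct markers 145 to 272 against 38.1 to 54.2 CPM. Sums lean on abundant genes: the bile duct marker Spp1 averaged 180 against 31.7 CPM and the stellate marker Dcn 241 against 133 CPM. Counted singly, 10 of 10 macrophage, 7 of 10 endothelial, 8 of 10 stellate and 5 of 7 tested bile duct markers had positive fold changes. The remaining markers had negative ones, as did 51.4% of all tested genes. None of these 4 lists had a marker at 0 in all 6 libraries, and 2 bile duct markers were at 0 in at least 1. Their part in the Dicer1 level was not tested.

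Drosha (ENSMUSG00000022191.15, chromosome 15, 12824815 to 12935291, plus strand) had the second largest difference of the 6. It was measured at 7.06, 7.86 and 6.02 CPM in Dicer LKO and at 7.44, 10.8 and 12.7 CPM in the controls. Control replicate 1 lay inside the range of the Dicer LKO libraries, while the other 2 controls lay above all of them. The mean in Dicer LKO was 67.8% of that in the controls, a log2 fold change of -0.56 (SE 0.22, 95% interval -1.07 to -0.04) and an adjusted p of 0.210 (edgeR quasi-likelihood). Its unadjusted p was 0.0375, and 21% of all tested genes had an unadjusted p under 0.05. Without control replicate 3, the library with the muscle transcripts, the log2 fold change was -0.36 (adjusted p = 0.481, edgeR).

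Dgcr8 (ENSMUSG00000022718.11, chromosome 16, 18253948 to 18289246, minus strand) had nearly equal means in the groups. The values were 14.2, 13.2 and 12.4 CPM in Dicer LKO and 12.2, 13.4 and 14.5 CPM in the controls, and the ranges overlapped almost completely. The log2 fold change was -0.005 (SE 0.14), and its 95% interval leaves room for 0.801 to 1.24 times the control level (adjusted p = 0.990, edgeR). The spread between libraries was 6.57% of the mean in Dicer LKO and 8.65% in the controls, close to the 5.78% and 6.25% that counting alone gives at 227 to 312 counts per library.

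**Figure D1:**
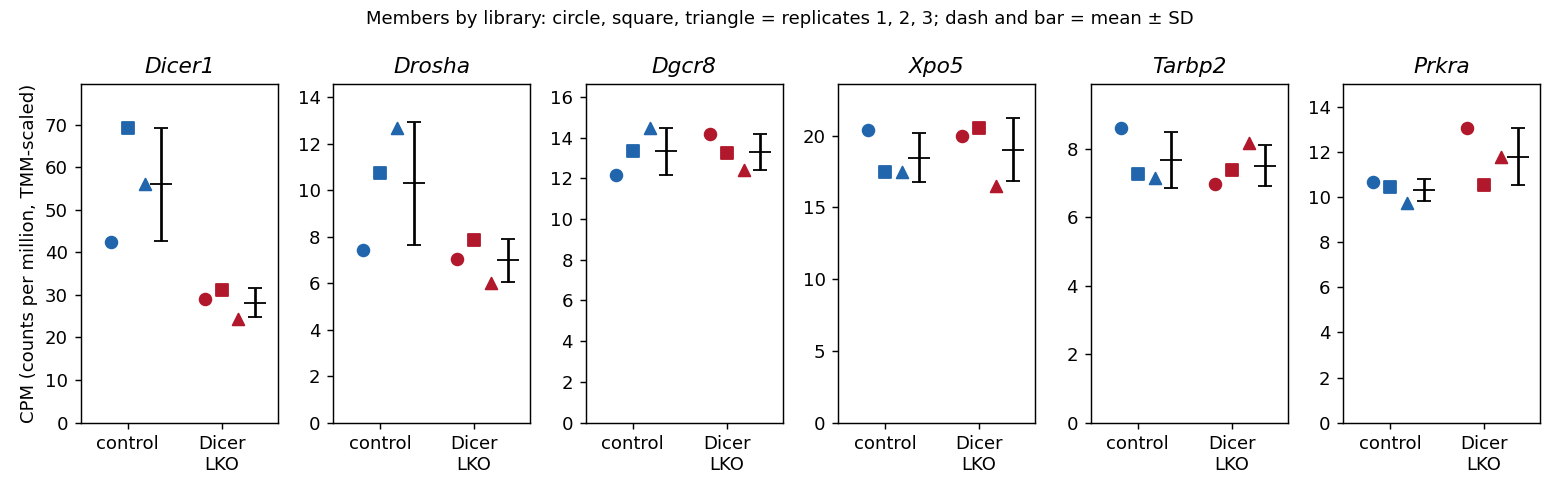
Levels of the 6 member genes in each library, in TMM-scaled CPM (vertical axis, starting at 0), for control (blue) and Dicer LKO (red); symbols are replicates, and the dash with bar is the mean ± SD of 3 libraries. Dicer1 is at 24.4 to 31.2 CPM in Dicer LKO and 42.5 to 69.3 CPM in the controls, while the groups overlap for the other 5 genes.

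The Dgcr8 transcript itself holds a miRNA hairpin, and the microprocessor is known to cut Dgcr8 messenger RNA at hairpins of this kind. The hairpin of Mir1306 lies on the same strand inside the coding sequence of Dgcr8, at chr16:18284239-18284317 (GRCm38), and a further annotated miRNA, Gm24572 (18284550 to 18284637), lies in the untranslated part of an exon. The Mir1306 hairpin, from RefSeq (GRCm38.p6), is shown as a piece of this member of the kind that a fellow member acts on. The capitals mark the 2 mature arms.
Mir1306: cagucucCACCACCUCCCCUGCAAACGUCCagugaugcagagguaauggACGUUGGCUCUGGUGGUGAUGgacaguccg
Both hairpins had rows of their own in the tables, with 0 counts in each of the 6 libraries, and so do Gm47288, annotated within an exon of Drosha, and Mir693, in an intron of Xpo5. No read of a member was thus assigned to these rows. The Mir1306 hairpin has 79 bases, whereas length minus effective length, which reflects fragment size, was 196 to 206 bases in longer genes. A row that short could hardly take a fragment, so its 0 does not show where reads over the hairpin went. The 3′ end of Dgcr8 overlaps Trmt2a on the opposite strand, at 12.9 ± 0.802 CPM in Dicer LKO and 12.7 ± 1.46 CPM in the controls (SD, n = 3 each). Since the strand setting is not given in the sources used here, reads in that overlap could have been assigned to either gene. Gm49776, a protein-coding gene on the same strand as Dgcr8 (18245215 to 18258321), also overlaps its exons in GENCODE M21. Gm49776 has no row among the deposited genes, so any reads from it cannot be told apart from those of Dgcr8 there.

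Xpo5 (ENSMUSG00000067150.5, chromosome 17, 46202782 to 46243598, plus strand) was measured at 19.997, 20.5 and 16.5 CPM in Dicer LKO and at 20.4, 17.4 and 17.5 CPM in the controls. Each group had values near both ends of the common range. The log2 fold change was 0.04 (SE 0.15, adjusted p = 0.899, edgeR), with an interval of 0.816 to 1.3 times the control level. It was negative when the libraries were scaled by their totals (-0.08) and in the deposited TPM values, so no direction is given for it.

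Tarbp2 (ENSMUSG00000023051.10, chromosome 15, 102518192 to 102523676, plus strand), which encodes TRBP, had the fewest reads of the 6 in control replicate 3, an expected count of 112. Its level was 6.97, 7.39 and 8.17 CPM in Dicer LKO and 8.61, 7.25 and 7.14 CPM in the controls, so that both groups spanned about the same range. The log2 fold change was -0.03 (SE 0.16, adjusted p = 0.935, edgeR), with an interval of 0.757 to 1.27 times the control. The spread of 8.08% in Dicer LKO and 10.7% in the controls stood beside 7.73% and 8.32% from counting alone.

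Prkra (ENSMUSG00000002731.6, chromosome 2, 76629898 to 76648015, minus strand), which encodes PACT, had the highest fold change of the 6. It was at 13.1, 10.5 and 11.8 CPM in Dicer LKO and at 10.7, 10.5 and 9.76 CPM in the controls. Dicer LKO replicates 1 and 3 lay above all controls and replicate 2 among them. The log2 fold change of 0.19 (SE 0.14) did not pass the test (adjusted p = 0.481, edgeR), and the interval runs from 0.909 to 1.44 times the control. PKR itself, the kinase that PACT activates (Eif2ak2), was at 25.9 ± 2.97 CPM in Dicer LKO and 23.7 ± 0.926 CPM in the controls (SD, n = 3 each, log2 fold change 0.13, adjusted p = 0.632, edgeR).

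**Figure D2:**
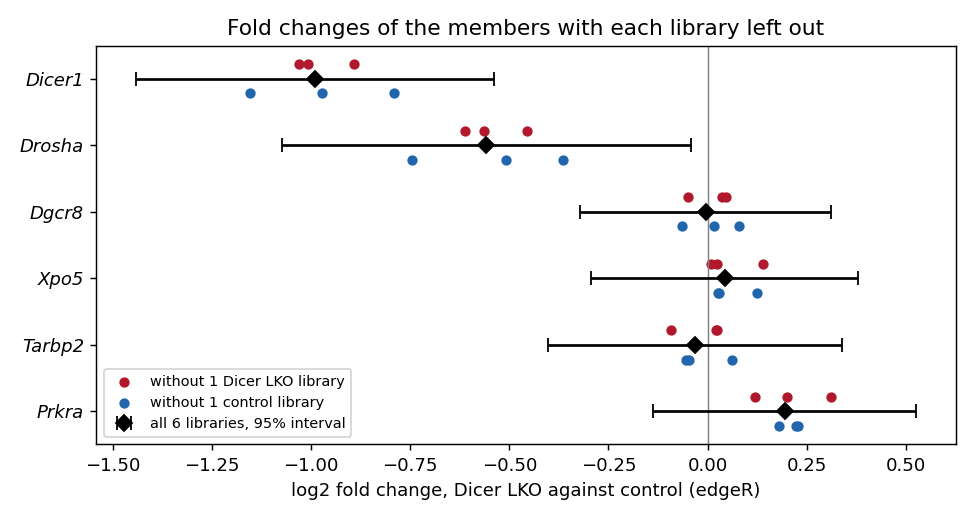
Log2 fold change of each member (horizontal axis, Dicer LKO against control, edgeR) with its 95% interval from all 6 libraries (black) and without each Dicer LKO (red) or control (blue) library. Dicer1 stays between -1.15 and -0.79 and Drosha between -0.75 and -0.36, while Dgcr8 and Tarbp2 have values on both sides of 0.

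Compared per length, the members covered a narrow range, and the place of Dicer1 among them differed between the groups. In the controls the order of the mean TPM was Prkra (5.47 ± 0.214), Tarbp2 (5.06 ± 0.353), Dicer1 (4.21 ± 0.912), Xpo5 (3.82 ± 0.396), Dgcr8 (2.65 ± 0.299) and Drosha (2.21 ± 0.811; SD, n = 3 each). In Dicer LKO it was Prkra (5.69 ± 0.742), Tarbp2 (4.42 ± 0.584), Xpo5 (3.61 ± 0.286), Dgcr8 (2.6 ± 0.428), Dicer1 (1.94 ± 0.15) and Drosha (1.2 ± 0.202). Dicer1 thus stood above Xpo5 in 2 of 3 controls and below Dgcr8 in all 3 Dicer LKO libraries. Of the neighbours in the control order, the ranges over libraries overlapped for each pair other than Xpo5 and Dgcr8. In the Dicer LKO order, Tarbp2 and Xpo5 was the 1 pair of neighbours that overlapped. The TPM of Xpo5 rests on a gene model of 3709 bases in the deposited tables, whereas the same transcript has 5081 bases in GENCODE release M21. A level per length moves with the length of the model, so the place of Xpo5 depends on it.

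**Figure D3:**
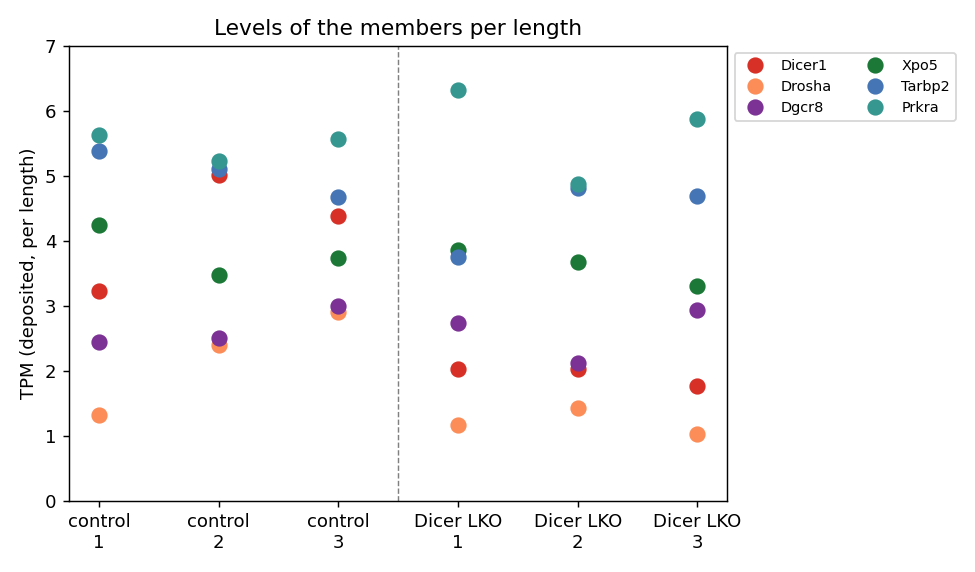
Deposited TPM (vertical axis, transcript level corrected for length) of the 6 members in each of the 3 control and 3 Dicer LKO libraries. Dicer1 lies at 3.22 to 5.02 TPM in the controls and 1.77 to 2.03 TPM in Dicer LKO, where it is below Dgcr8 in every library.

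Ratios of members within a library, which do not depend on how libraries are scaled to each other, were compared for 4 pairs. The Dicer1 to Drosha ratio in TPM was 1.74, 1.43 and 1.74 in Dicer LKO and 2.44, 2.1 and 1.51 in the controls, with overlap (exact two-sided permutation p = 0.3, adjusted over the 4 ratios 0.4). In expected counts the same ratio was 4.1, 3.96 and 4.05 in Dicer LKO and 5.72, 6.44 and 4.42 in the controls, with no overlap (exact permutation p = 0.1). The Drosha to Dgcr8 ratio, the balance of the microprocessor's subunits, was 0.427, 0.67 and 0.347 in TPM in Dicer LKO and 0.541, 0.952 and 0.973 in the controls (exact permutation p = 0.2, adjusted 0.4). In expected counts it was 0.498, 0.594 and 0.484 against 0.611, 0.806 and 0.877, again without overlap (exact permutation p = 0.1). The Xpo5 to Drosha ratio in TPM was 2.59 to 3.3 in Dicer LKO against 1.29 to 3.22 in the controls, and the Tarbp2 to Prkra ratio 0.593 to 0.99 against 0.842 to 0.977 (exact permutation p = 0.2 and 0.4). In expected counts these ratios also overlapped, at 2.61 to 2.83 against 1.38 to 2.75 for Xpo5 to Drosha (exact permutation p = 0.3) and 0.533 to 0.701 against 0.693 to 0.806 for Tarbp2 to Prkra (exact permutation p = 0.2). No exact test of 3 against 3 can go below 0.1, so none of the 4 ratios could have passed 0.05.

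The TPM of a gene also moves with the length that the authors' program assigned to it, which is a mean over its annotated transcripts weighted by their estimated shares. Dicer1 and Xpo5 had 1 transcript each in the tables and a constant length of 9851 and 3709 bases. Drosha had 8 transcripts, and its length was 4282, 3697 and 4354 bases in Dicer LKO and 4329, 3343 and 3484 bases in the controls. Control replicates 2 and 3 and Dicer LKO replicate 2 thus had shorter estimated mixes than the other 3 libraries, and the groups overlapped (difference 392 bases, exact permutation p = 0.3). That difference was 204 bases without control replicate 2, 697 without control replicate 1 and 599 without Dicer LKO replicate 2. The coding transcripts of Drosha have 4519 and 4570 bases in GENCODE M21, an intron-retaining one 3248 bases, and processed ones 588, 699, 881 and 881 bases. The length of the remaining one is not known, and which transcripts shortened the mean was not tested. Control replicates 2 and 3, with the shortest lengths of Drosha, were also the libraries with the highest Drosha TPM (2.39 and 2.91). The mean Drosha TPM in Dicer LKO was 54.5% of the control mean, against 67.8% in CPM, where the length plays no part. Dicer1 and Xpo5, whose length was constant, had 46.2% and 94.6% in TPM against 50.3% and 103% in CPM. The deposited TPM values were also not TMM-scaled, and the part of length in the Drosha gap was not tested.

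Dgcr8, with 7 transcripts, ranged from 3174 to 4129 bases within Dicer LKO, wider than the 3843 to 3924 bases of the controls. Tarbp2, with 14 transcripts, lay between 1168 and 1462 bases over all libraries and Prkra, with 2, between 1518 and 1614. The exact permutation p-values for the length were 0.3 or more for all 4 genes with several transcripts. The range of the length over the 6 libraries came to 25.8% of its mean for Drosha, 25.3% for Dgcr8, 22.1% for Tarbp2 and 6.05% for Prkra. The median over all tested genes was 7.02%, with 26.6% of them at a constant length. The share of tested genes with a smaller range was 81.5% for Drosha, 81.1% for Dgcr8, 77.5% for Tarbp2 and 47.1% for Prkra. The shares of transcripts rest on 112 to 312 reads per gene and library for these 4 genes, and the transcript tables were not used here.

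**Figure D4:**
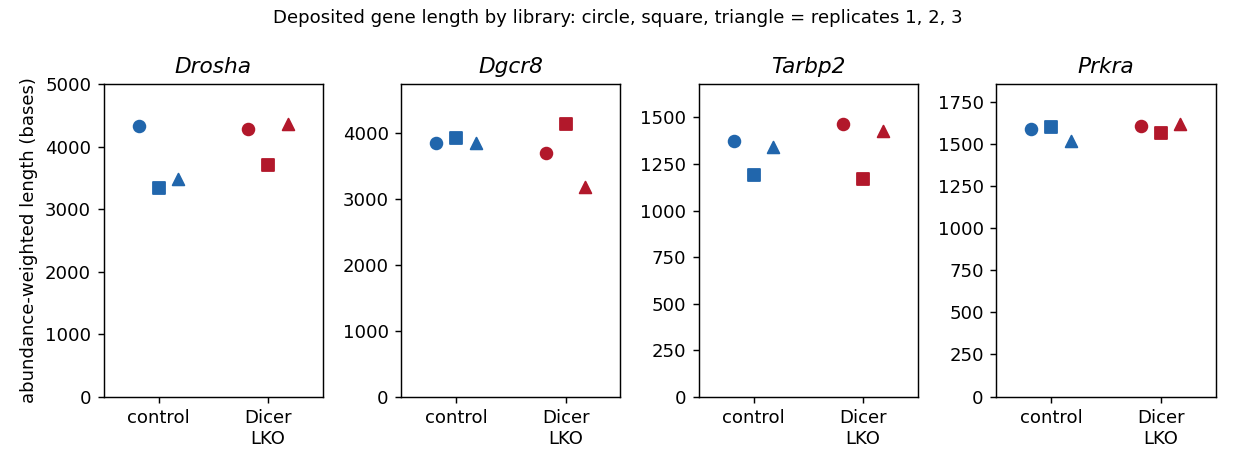
Abundance-weighted gene length in bases (vertical axis, starting at 0) in each library for the 4 members with several annotated transcripts; symbols are replicates, blue is control and red Dicer LKO. Drosha is at 3343 and 3484 bases in control replicates 2 and 3 and at 4329 in control replicate 1, and the groups overlap in each of the 4 genes.

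The members' own messenger RNAs were searched for matches to 10 common miRNAs, as a description of sequence. A match was the complement, on the transcript strand, of bases 2 to 8 of the miRNA in the longest annotated 3′ untranslated region (GENCODE M21). Dicer1 had 7 matches to 5 of the 10 miRNAs in a region of 3851 bases, where genes of a length within 25% had matches to a median of 3. The mature miRNAs with matches in several members, from RefSeq (GRCm38.p6), are shown with bases 2 to 8 in capitals.
miR-148a-3p: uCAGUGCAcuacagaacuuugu
miR-27b-3p: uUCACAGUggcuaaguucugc
miR-103-3p: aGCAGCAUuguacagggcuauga
The letters searched were TGCACTG for miR-148a-3p, ACTGTGA for miR-27b-3p and ATGCTGC for miR-103-3p, and they occur in 31.5%, 35.4% and 28.7% of the 1528 untranslated regions of a length like that of Dicer1. All matches of Dicer1 and Drosha to these 3 miRNAs are printed because these are the members with the largest differences, and the capitals mark the match.
Dicer1, miR-148a-3p, chr12:104690352-104690358: tcatgcttgaagtttaatttttTGCACTGt
Dicer1, miR-27b-3p, chr12:104690349-104690355: tgcttgaagtttaattttttgcACTGTGAc
Dicer1, miR-148a-3p, chr12:104689106-104689112: tgcatgcgagctcggcgggcacTGCACTGt
Dicer1, miR-27b-3p, chr12:104689377-104689383: cctgataactagtttgaatcatACTGTGAt
Dicer1, miR-103-3p, chr12:104690170-104690176: cctgaggctgatgcttcatgtaATGCTGCa
Drosha, miR-27b-3p, chr15:12935160-12935166: gcggagcattgcctttctaagaACTGTGAc
The first 2 Dicer1 matches overlap. Drosha had no other match to the 10 in its 169 bases. Dgcr8 had 1 match each to miR-103-3p and miR-148a-3p in 1574 bases. Tarbp2 had 1 each to let-7a-5p and miR-103-3p in 334 bases. Prkra had 1 to miR-30a-5p in 513 bases, and Xpo5 none to the 10 in 1327 bases. Regions within 25% of the member's length had matches to a median of 1 of the 10 miRNAs for Dgcr8 and Xpo5. That median was 0 for Drosha, Tarbp2 and Prkra. Each match of Drosha, Dgcr8, Tarbp2 and Prkra occurs in 3% to 15.9% of such regions. The let-7a-5p match of Tarbp2, CTACCTC, is one that 3.2% of regions of a length like that of Tarbp2 hold, and Dicer1 has none in its 3′ region.

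Of the tested genes in 5 lists that act beside the members, none was called by edgeR with all 6 libraries. The lists were 18 microprocessor cofactors, 10 genes of nuclear export and the Ran cycle, 17 tested of 19 genes of precursor modification and turnover, 17 double-stranded RNA binding and PKR genes, and 7 Argonaute and Tnrc6 genes. Their median log2 fold changes were -0.03, -0.003, -0.22, -0.05 and -0.38, beside a median of -0.01 over all tested genes, of which 51.4% had negative values. At an unadjusted p under 0.05, which 12.1% of all tested genes reached with a lower level in Dicer LKO, there were 4 of 18 cofactors, 1 of 10 export genes, 1 of 17 modification genes, 1 of 17 double-stranded RNA binding genes and 5 of 7 Argonaute and Tnrc6 genes. With a higher level, 1 cofactor, 1 export gene and 1 modification gene reached it, and 0 genes of the other lists. In either direction, 21% of all tested genes did. DESeq2 called 3 cofactors, 1 gene each of the export, modification and double-stranded RNA binding lists and 2 of the Argonaute and Tnrc6 list, all lower in Dicer LKO, where it called 3.93% of all genes lower. Without control replicate 1, edgeR called 1 gene each of the cofactor, export and double-stranded RNA binding lists, all lower, and 2.11% of all genes tested were called lower there. Among genes lower at an unadjusted p under 0.05, the 4 cofactors became 2 without control replicate 3 and without Dicer LKO replicate 3, with medians of 0.09 and 0.08. Without control replicate 3, 2 cofactors were higher at that threshold. The 5 Argonaute and Tnrc6 genes became 2 without control replicate 3, Dicer LKO replicate 2 or Dicer LKO replicate 3, and 3 without Dicer LKO replicate 1 or control replicate 2. The 1 modification gene became 4 when control replicate 1 was left out, 3 when Dicer LKO replicate 3 was and 2 when control replicate 3 was, and the median of that list ran from -0.30 to -0.12 without single libraries. With library totals, where the median of all genes was -0.13, there were 5 modification and 4 double-stranded RNA binding genes. The median of the export list was 0.12 without control replicate 1.

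Among the cofactors, the most abundant were the RNA helicase gene Ddx5 at 390 ± 34.6 CPM in Dicer LKO and 400 ± 71 CPM in the controls, and Hnrnpa2b1, an RNA-binding protein gene, at 156 ± 33.8 against 158 ± 27.4 CPM (SD, n = 3 each). Khsrp, which encodes a protein that binds the loop of some precursors, was at 19.8, 17.3 and 20 CPM in Dicer LKO and 25.7, 31.6 and 38.8 CPM in the controls, with no overlap (log2 fold change -0.75, adjusted p = 0.0781, edgeR). Hnrnpa1, which binds the loop of some primary miRNA transcripts, stood on the other side, at 48.4 ± 8.13 against 34.3 ± 2.62 CPM (0.50, adjusted p = 0.135, edgeR). In the export list, Ranbp2, a nuclear pore protein gene, was at 196 ± 19.5 against 195 ± 30.5 CPM and Xpot, the export receptor gene for transfer RNA, at 81.4 ± 3.88 against 84.6 ± 15 CPM. Khsrp and Hnrnpa1 were named after their values were seen.

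Of the genes that modify or degrade precursors, the nuclease gene Snd1 was at 131 ± 6.67 CPM in Dicer LKO and 140 ± 8.14 CPM in the controls, and the terminal uridylyl transferase gene Zcchc6 at 109 ± 2.38 against 118 ± 4.54 CPM. Lin28b, which blocks let-7 maturation in early development, had 0 counts in all 6 libraries, and Lin28a stayed at 0.279 CPM or less in each. In the double-stranded RNA binding list, the splicing cofactor gene Son was at 239 ± 12 against 296 ± 17.1 CPM without overlap (log2 fold change -0.31, adjusted p = 0.290, edgeR) and the helicase gene Dhx9 at 55.2 ± 9.46 against 68.2 ± 6.94 CPM. In the Argonaute and Tnrc6 list all 7 genes had negative values, and those of Tnrc6b and Tnrc6a, silencing complex scaffolds, were -0.59 (adjusted p = 0.0822) and -0.33 (adjusted p = 0.258, edgeR).

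**Figure D5:**
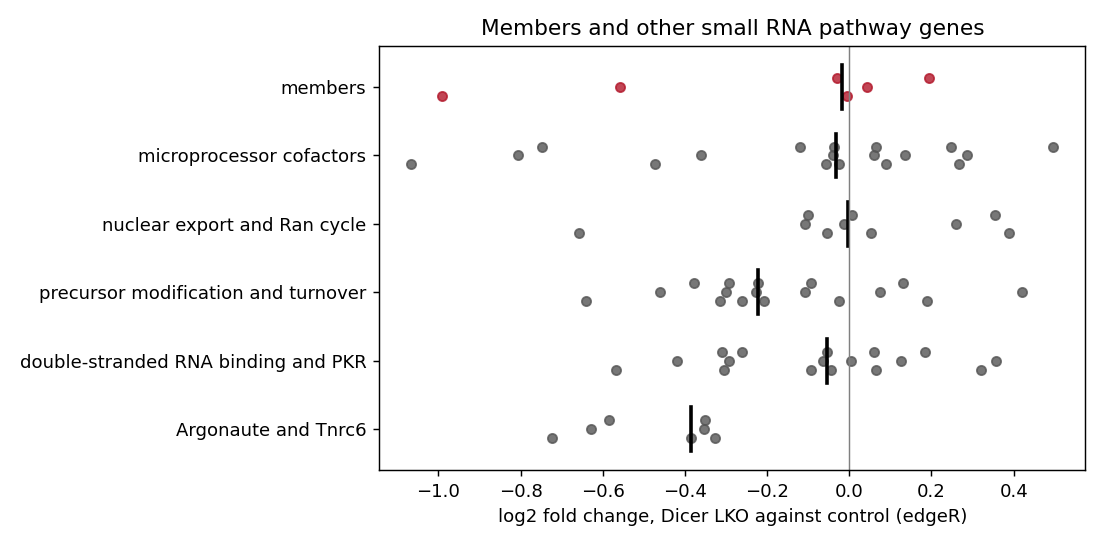
Log2 fold change (horizontal axis, Dicer LKO against control, edgeR) of each tested gene in the 6 members (red) and 5 lists of other small RNA pathway genes (grey); vertical bars are medians. The Argonaute and Tnrc6 genes have a median of -0.38 with all 7 below 0, while the medians of the members and of the microprocessor cofactors are -0.02 and -0.03.

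Profiles over the 6 libraries were compared by the root mean square difference of log2 CPM after each gene was centred on its own mean, among 10618 candidate genes. For Dicer1 the 3 nearest were Cyp2d37-ps (0.16), a pseudogene of the cytochrome P450 family, Irf2 (0.16), a transcription factor gene, and Agbl5 (0.16), a carboxypeptidase gene. For Drosha they were Amigo1 (0.04), a cell adhesion gene, Kat6b (0.06), a histone acetyltransferase gene, and Diaph1 (0.06), a formin gene. Among the members, Drosha was nearest to Dicer1, at 0.27. Drosha was at place 164 among the candidates ordered by distance from Dicer1, and Dicer1 at place 1306 as ordered from Drosha. Dgcr8, Xpo5, Tarbp2 and Prkra lay 0.16 to 0.2 from each other and 0.52 to 0.64 from Dicer1. The median distance to all genes compared was 0.25 to 0.27 for Dgcr8, Xpo5, Tarbp2 and Prkra, 0.44 for Drosha and 0.59 for Dicer1. Nearest to Dgcr8 were Ift172, Ap2b1 and Ehd1, to Xpo5 Ncbp1, Nudcd2 and Ccdc47, to Tarbp2 Sharpin, Rnpc3 and Stub1, and to Prkra Psmc3, Ggact and Impact. All points share the same 6 libraries, depths and scaling.

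Other RNAs, chosen after the values were seen, were like Drosha lowest in replicate 1 and highest in replicate 3 among the controls. The share of all tested genes with this order was not counted. Neat1, a long noncoding RNA kept in the nucleus, was at 718, 871 and 2371 CPM in control replicates 1, 2 and 3 and at 176 to 286 CPM in Dicer LKO (log2 fold change -2.46, adjusted p = 0.0633, edgeR). Malat1, likewise nuclear, was at 3735, 4509 and 6144 CPM in the controls and 2571 to 3480 CPM in Dicer LKO (-0.60, adjusted p = 0.261, edgeR). Control replicate 3 is also the library with the muscle markers and the highest mitochondrial share. The part of library quality in the Drosha difference was not tested.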

How the data were processed

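For each sample the authors deposited a gene table holding an expected count (estimated reads per gene, not normalized), a TPM value, and a length and effective length for 50600 genes, with the columns that RSEM writes, per the file headers. CASAVA, Bowtie and build hg19 are named, per the submitters' processing notes; hg19 is human, although the deposited gene identifiers are mouse. Not given in the sources used here were the read counter, the mouse build and the strand setting. TPM values were made by the authors. Gene identifiers matched GENCODE M21 (GRCm38) for 99.56%, the source of all coordinates.

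Expected counts were rounded (96.0% to 96.5% were whole), filtered with filterByExpr, scaled by TMM and tested with edgeR 4.0.16 (R 4.3.3; glmQLFit with the robust setting and glmQLFTest) with genotype as the only term, over 14314 genes. Each SE was taken as the size of the log2 fold change over the root of the F statistic, and the 95% interval uses the test's total degrees of freedom. Ratios and lengths had exact two-sided permutation tests. Alternatives used DESeq2 1.42.0, limma 3.58.1 on log2(TPM + 1) and log2(TPM + 0.1), other scalings and filters, and left out each library. No 2 libraries held identical values, and each differed from its replicates by more than counting noise. The fit and the permutation code were tested on simulated data. Members had 112 to 1442 reads per library. Counting error at that depth was below the spread between libraries in both groups for each member but Prkra. For Prkra in the controls, the spread was 4.71% of the mean against 7.15% from counting alone. No molecular identifiers are mentioned, so reads need not be independent molecules.

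The 10 miRNAs were picked from general knowledge after the files were read. The members, gene lists and tests were chosen with earlier results of these data known. Named genes were the members, up to 4 called genes of each list or, with fewer than 2 called, the 2 of highest mean CPM, and the 3 nearest profiles per member among genes whose average log2 CPM reached 1 and with a symbol other than a clone name, and genes overlapping a member; others were chosen after their values were seen. The heart, erythroid, lymphocyte, proliferation and other marker lists served to describe the libraries. Summed CPM of the erythroid markers was 1145 to 2135 in the Dicer LKO libraries against 284 to 381, of the lymphocyte markers 30.2 to 44.4 against 20.1 to 34.3, and of the proliferation markers 13.1 to 29.6 against 6.13 to 13.3.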

Additional observations from a re-analysis of the deposited data

How the results depend on the processing

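Dicer1 kept a negative fold change in every setting tried. Its adjusted p passed 0.05 with no filter on low counts (-0.98, adjusted p = 0.0220, edgeR), with DESeq2 (-0.99, adjusted p = 0.00117) and without control replicate 1, and without single libraries its log2 fold change ran from -1.15 to -0.79. In the other 11 alternative settings it was not called. Drosha stayed negative, from -0.75 to -0.36 without single libraries, and was called in no setting. Dgcr8 changed sign with no filter (0.0073), with DESeq2 (0.0019) and within -0.065 to 0.079 without single libraries. Xpo5 changed sign with library totals (-0.079) and with limma on log2(TPM + 1) (-0.062) and on log2(TPM + 0.1) (-0.076). Without single libraries Tarbp2 ranged over -0.092 to 0.063, Xpo5 over 0.0084 to 0.14 and Prkra over 0.12 to 0.31. The number of genes called was 185. It was 103 with library totals, 422 with no filter, 1114 with DESeq2 and 94 with limma on log2(TPM + 1), and 23 to 389 without single libraries. The cause was not tested. With the replicate number as a block it was 245, and Dicer1 had -0.97 (adjusted p = 0.0554, edgeR). Deviations of same-numbered libraries from their group means correlated at 0.109, 0.0650 and -0.0964 across genes, and not every library correlated best with its own number. With 3 libraries per group, these values cannot decide whether the numbers pair the samples. The group difference in length ran from 204 to 697 bases for Drosha, -437 to 40.4 bases for Dgcr8, -5.57 to 141 for Tarbp2 and -0.315 to 40.5 for Prkra without single libraries. In effective length, which also reflects fragment size, Dicer1 and Xpo5 differed by -4.72 bases. With library totals the median log2 fold change of all genes was -0.13, and with limma on log2(TPM + 0.1) -0.12, against -0.01 with TMM; relative to these shifts Xpo5 was not lower, and Prkra had 0.08 with library totals and 0.04 with limma on log2(TPM + 1). List counts without single libraries, with DESeq2 and with library totals were added after seeing the data.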
